A study of Mus musculus with 5 samples.

Results

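Sarcoma cells with much Cdkn2a RNA were set against sarcoma cells of the same tumours with none counted, across 4 single-cell RNA sequencing libraries of mouse sarcomas. A sarcoma cell was taken as one with at least 500 detected genes, at most 10% mitochondrial UMIs, at least 10000 UMIs in all, at least 2 Gchfr UMIs, no Smarcb1 UMI, fewer than 2 UMIs summed over Ddah1, Wisp1, C1qtnf7 and Fbn2, and fewer than 5 Rgs5 UMIs per 10000. A UMI, or unique molecular identifier, stands for 1 captured RNA molecule. Both classes were chosen by their measured Cdkn2a count. Cells with 4 or more Cdkn2a UMIs are called Cdkn2a-high and cells with 0 are called Cdkn2a-negative. There were 6154 Cdkn2a-high and 3590 Cdkn2a-negative cells, 9744 of the 16179 sarcoma cells and of the 39930 barcodes of the whole series. The remaining 6435 sarcoma cells held 1 to 3 Cdkn2a UMIs.

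Both classes came from epithelioid sarcomas of C57BL/6J mice with the genotype Hic1CreERT2/CreERT2;Rosa26LSLtdTomato/LSLtdTomato;Smarcb1FL/FL, so every cell compared here shares that background. Hic1 drives a tamoxifen-activated Cre in mesenchymal progenitors, which switches on the red reporter tdTomato and can delete the floxed Smarcb1 copies, and the cells were sorted for tdTomato. Animals were injected at 8 weeks of age on 5 days with tamoxifen (2.5 mg, carried in 100 µL of oil), followed by 10 days of washout, and sarcoma cells were taken at endpoint from the shoulder (sarcoma 1), the head (sarcoma 2), the head and ear (sarcoma 3) and the hip (sarcoma 4). A further library, of muscle progenitors from resting hindlimb, of genotype Hic1CreERT2/CreERT2;Rosa26LSLtdTomato/+, was used for background only. Whether each sarcoma came from its own mouse is not stated in the labels, and a p-value here reflects the spread among 4 samples only.

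Cdkn2a encodes 2 unrelated tumour suppressors from alternative first exons. Ink4a blocks the kinases CDK4 and CDK6 and so keeps the RB protein active, and Arf inhibits MDM2 and so stabilises p53. Its neighbour Cdkn2b encodes a further CDK4 and CDK6 inhibitor. The locus is kept silent by Polycomb in young tissue and is switched on by oncogenic stress and in senescence. Loss of the SWI/SNF subunit SMARCB1 has been linked to its silencing in human rhabdoid tumour cells.

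Cdkn2a (ENSMUSG00000044303) lies on the minus strand of mouse chromosome 4 from 89274471 to 89294653 (mm10). Its 2 annotated protein-coding transcripts, Cdkn2a-202 with the distal Arf first exon and Cdkn2a-201 with the Ink4a first exon, share their second exon and most of their last one. Counts of 3′ ends therefore cannot tell Arf from Ink4a. Cdkn2b (ENSMUSG00000073802) lies 11645 bases upstream on the same strand, from 89306299 to 89311039. The longest exact stretch shared by a Cdkn2a and a Cdkn2b transcript is 23 bases. Inexact matches were not examined, and whether reads of either gene were counted for the other was not tested.

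The 250 bases upstream of 5 starts, from RefSeq (GRCm38.p6), are shown for the chosen gene, for its neighbour and for 2 further genes described here, the p53 target Cdkn1a on the higher side and the cytokine gene Lif on the lower side. Capitals mark matches on either strand to any of 5 motifs. The AP-1 motif is spelled TGANTCA. The Sp1 motif is spelled GGGCGG. The box that NF-Y binds is spelled CCAAT. The E2F motif is spelled TTTNGCGC. The full p53 site is made of 2 decamers up to 13 bases apart.
Cdkn2a, Arf start, chr4:89294620-89294869, minus strand: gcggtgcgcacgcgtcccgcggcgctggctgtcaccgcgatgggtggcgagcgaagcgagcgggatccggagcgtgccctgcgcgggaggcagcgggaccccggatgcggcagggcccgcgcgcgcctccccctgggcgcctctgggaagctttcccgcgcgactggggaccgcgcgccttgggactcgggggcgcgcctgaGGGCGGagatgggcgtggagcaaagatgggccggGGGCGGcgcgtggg
Cdkn2a, Ink4a start, chr4:89282193-89282442, minus strand: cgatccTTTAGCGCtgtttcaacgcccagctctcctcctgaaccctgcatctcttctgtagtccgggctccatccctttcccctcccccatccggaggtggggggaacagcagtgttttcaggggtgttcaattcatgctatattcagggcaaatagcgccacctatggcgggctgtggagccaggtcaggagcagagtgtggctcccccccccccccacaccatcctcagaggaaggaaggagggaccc
Cdkn2b, chr4:89311033-89311282, minus strand: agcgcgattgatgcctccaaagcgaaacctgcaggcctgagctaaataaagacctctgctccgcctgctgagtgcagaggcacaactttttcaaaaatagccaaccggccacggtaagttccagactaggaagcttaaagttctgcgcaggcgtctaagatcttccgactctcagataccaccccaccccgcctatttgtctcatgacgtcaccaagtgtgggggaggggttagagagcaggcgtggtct
Cdkn1a, distal start, chr17:29090729-29090978, plus strand: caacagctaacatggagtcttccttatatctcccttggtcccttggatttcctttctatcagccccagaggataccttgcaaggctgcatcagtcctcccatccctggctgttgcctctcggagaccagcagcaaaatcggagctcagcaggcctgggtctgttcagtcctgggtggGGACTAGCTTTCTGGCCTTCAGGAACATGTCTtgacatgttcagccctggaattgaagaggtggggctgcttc
Lif, chr11:4257318-4257567, plus strand: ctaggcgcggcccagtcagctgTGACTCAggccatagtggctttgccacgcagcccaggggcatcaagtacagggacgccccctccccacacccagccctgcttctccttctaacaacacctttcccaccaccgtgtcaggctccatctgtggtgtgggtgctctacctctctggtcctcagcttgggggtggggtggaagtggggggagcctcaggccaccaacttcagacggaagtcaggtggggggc
The Arf start held 2 Sp1 motifs and 78.4% G and C. The Ink4a start held 1 E2F motif, and the Cdkn2b window held none of the 5 motifs. The distal Cdkn1a window held the full p53 site, and the window of its second RefSeq start (chr17:29093519-29093768, not shown) held none and 2 Sp1 motifs. The full site was found in 21 of the 32851 promoter windows in the table (0.0639%). The Lif window held 1 AP-1 motif, as did 6.75% of windows, and Sp1 and E2F were found in 32.7% and 1.13%. No spelled motif contains another. These are letter matches only.

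The rule used Cdkn2a, so its levels are given as a description. Levels are UMIs per 1000000 (CPM). Over all sarcoma cells by the rule Cdkn2a lay at 194, 79.5, 150 and 116 CPM in sarcomas 1 to 4. Cells just inside the limit, with 4 UMIs, held 142, 110, 146 and 114 CPM, and cells just outside it, with 3 UMIs, held 112, 87.4, 113 and 89.9 CPM. These levels follow from a count of 4 or 3 over the depth of the cells, so they cannot show whether the classes form separate groups. Kept muscle progenitors held 0.348 CPM over the whole library.

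To compare cells at 1 depth, every sarcoma cell was thinned at random to 10000 UMIs. A Cdkn2a UMI was then held by 70.5% of cells in sarcoma 1, 40.6% in sarcoma 2, 59.6% in sarcoma 3 and 58.7% in sarcoma 4. Unthinned shares were 89.0%, 64.8%, 79.0% and 85.0%, at median depths of 26777, 28841, 23597 and 33005 UMIs. Cells of the same libraries with a Smarcb1 UMI and no Gchfr UMI, which the sarcoma rule leaves out, held one in 7.73%, 10.2%, 6.91% and 25.8% of 181, 128, 1187 and 31 cells at the same thinned depth, from median depths of 18529, 22279, 21066 and 22494 UMIs. Unthinned, these cells held one in 16.02%, 11.7%, 10.2% and 38.7%. In muscle the thinned share was 0.263% of 1519 cells (unthinned 0.461%, median depth 12246 UMIs). The sarcoma share lay above the share of the cells without Gchfr in each of the 4 libraries, and sarcoma 4 had the narrowest gap in ratio.

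Cdkn2a was spread more widely between cells than counting alone gives. Cells with no Cdkn2a UMI at 10000 UMIs made up 29.5% of sarcoma 1 (95% exact binomial interval 28.2 to 30.9), where Poisson counting at the same mean gives 15.7%. They made up 59.4% of sarcoma 2 against 46.1% by Poisson counting, 40.4% of sarcoma 3 against 18.96%, and 41.3% of sarcoma 4 against 33.1%. The Fano factor, the variance over the mean, which is 1 for Poisson counts, was 2.44, 2.23, 3.47 and 1.68 in sarcomas 1 to 4. Cdk4, at means of 1.84, 1.10, 1.75 and 1.99 UMIs per cell beside 1.85, 0.775, 1.66 and 1.10 for Cdkn2a, had Fano factors of 1.27, 1.22, 1.41 and 1.42. Such a spread was not particular to Cdkn2a. Cdkn1a, at means of 2.82, 3.37, 6.32 and 3.53, had Fano factors of 5.28, 5.98, 8.49 and 12.6. Nefl had 24.2, 12.5, 12.9 and 9.15. Lif, at means of 0.859 and 0.795 in sarcomas 1 and 2, had 3.17 and 7.34. In sarcomas 3 and 4 it was rare and had 1.42 and 1.00. Intervals cover counting error only.

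**Figure D1:**
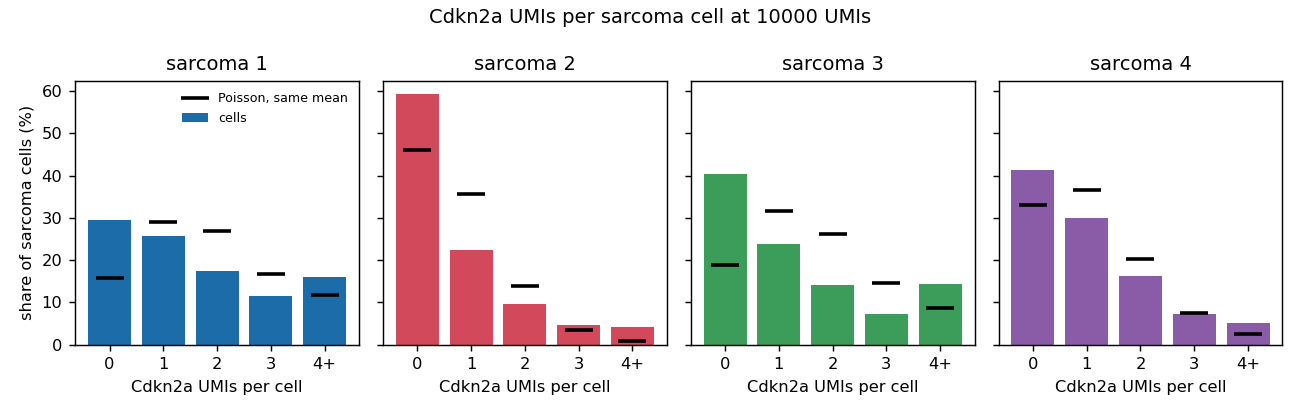
Share of sarcoma cells (%) with 0, 1, 2, 3 and 4 or more Cdkn2a UMIs after thinning each cell to 10000 UMIs, one panel per sarcoma; bars are cells and black dashes are Poisson counts of the same mean. In all 4 sarcomas the bars lie above the dashes at 0 and at 4 or more UMIs, with 29.5%, 59.4%, 40.4% and 41.3% of cells at 0.

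A low count can also be chance, so the Cdkn2a UMIs of each cell were split at random into equal parts A and B, the classes were set from part A only (2 or more UMIs, or 0), and the level was read in part B. Part B held 130, 80.6, 139 and 77.7 CPM in the high class and 39.7, 16.5, 27.9 and 28.4 CPM in the zero class of sarcomas 1 to 4. The high class was above the zero class in 4 of 4 sarcomas, by 1.94 ± 0.43 on the log2 scale (SD, n = 4; two-sided exact permutation p = 0.13, the smallest that 4 pairs allow). These classes are not those of the main comparison, and the design could not pass a threshold of 0.05. Parts A and B divide the same counts of the same cells. The spread beyond Poisson counting given above already leads to this direction, so the comparison describes its size and is no separate test. The zero class was not free of Cdkn2a RNA, and the high class held 2.74 to 4.97 times its level in part B.

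Before matching, Cdkn2a-high cells had medians of 32073, 36578, 26965 and 40387 UMIs, against 20096, 24812, 19385 and 23255 UMIs in Cdkn2a-negative cells. The rule sets the classes on raw counts, which favours deeper cells for the high class and shallower cells for the negative class. This gap therefore cannot show that the cells differ in RNA content. The classes were therefore matched within each sarcoma in steps of 0.05 on the log10 scale of total UMIs, which left 485, 1003, 495 and 291 cells of each class with medians of 20656, 31112, 20413 and 27627 UMIs in Cdkn2a-high and 20504, 31224, 20398 and 27373 UMIs in Cdkn2a-negative cells. Matched Cdkn2a-high cells held 374, 232, 360 and 226 CPM of Cdkn2a, TMM-scaled over the genes tested and so not on the scale of the levels above. Their raw counts were summed to 8 totals, 2 per sarcoma, of 8052971 to 31456222 UMIs in the genes tested. The comparison was paired within sarcomas with edgeR's quasi-likelihood test. Each pair of sarcomas shared 1 to 8 cell barcodes among the selected cells. Doublets were not called, and leaving out cells above 40000 UMIs was an alternative.

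Of 11974 genes tested, 1 rose in Cdkn2a-high cells (0.00835%) and 0 fell (0%) at an edgeR adjusted p below 0.05. That gene was Cdkn2b. At an unadjusted p below 0.05 there were 592 genes on the higher side (4.94%) and 602 on the lower side (5.03%). DESeq2 called 29 genes higher and 28 lower, and limma-voom called 11 and 5. A gene was higher in all 4 pairs in 1181 cases (9.86%) and lower in all 4 in 1250 (10.4%), and the middle log2 fold change among the 11974 genes was −0.0015.

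Cdkn2b was counted at 23.1, 16.1, 64.0 and 19.2 CPM in Cdkn2a-high cells of sarcomas 1 to 4, against 5.24, 3.48, 11.2 and 5.22 CPM in Cdkn2a-negative cells. The lowest Cdkn2a-high sum lay above the highest Cdkn2a-negative sum, and sarcoma 3 was the highest in both classes. The log2 fold change was 2.23 ± 0.11 (SE; edgeR adjusted p = 0.00768; higher in 4 of 4 sarcomas). No cell gave more than 4.72% of any of these sums that held at least 50 UMIs. The fold change kept its size without any sarcoma (2.09 to 2.31), but the edgeR adjusted p was 0.1005, 0.0847 and 0.123 without sarcomas 1, 2 and 3. Without the replicate block, which ignores the pairing, it was 0.99998.

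The other genes of the locus were less abundant or differed less. Mtap, a methionine salvage enzyme gene 93389 bases on the other side of Cdkn2a, held 89.9, 49.2, 47.3 and 30.6 CPM in Cdkn2a-high cells and 80.8, 48.2, 37.3 and 26.8 CPM in Cdkn2a-negative cells. Its log2 fold change was 0.17 ± 0.07 (SE; edgeR adjusted p = 0.475). Gm12606, a long non-coding RNA gene on the same strand that begins 1067 bases past the 3′ end of Cdkn2a, was too rare to be tested. It held 25, 42, 8 and 0 UMIs in Cdkn2a-high cells of sarcomas 1 to 4, against 0, 0, 0 and 1 UMI in Cdkn2a-negative cells. That gene is named because of these counts, after they were seen.

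**Figure D2:**
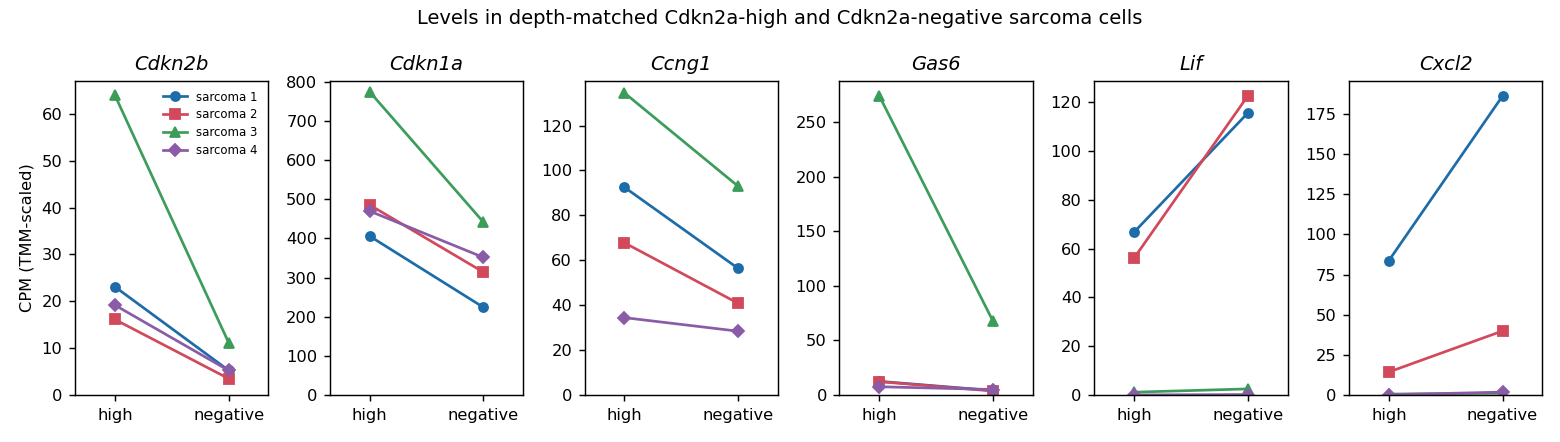
Levels (TMM-scaled CPM, linear axes from 0) of 6 genes in depth-matched Cdkn2a-high cells (left) and Cdkn2a-negative cells (right), with 1 line per sarcoma. Every line is higher at the left for Cdkn2b, Cdkn1a, Ccng1 and Gas6, and Lif and Cxcl2 lie near 0 in sarcomas 3 and 4.

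CDK inhibitor genes were counted next. Of 7 tested, 1 rose (Cdkn2b). An unadjusted p below 0.05 was found for 4 on the higher side and 0 on the lower (4.94% and 5.03% over all genes). The median log2 fold change was 0.59, the value of Cdkn3 (described below), and 0.21 without sarcoma 4. Within sarcomas 1 to 4 the median was 0.11, 0.25, 0.18 and 0.42. Cdkn1a, the p53-induced inhibitor whose promoter window is shown above, held 406, 485, 775 and 470 CPM in Cdkn2a-high cells and 224, 314, 442 and 351 CPM in Cdkn2a-negative cells. The classes overlapped between sarcomas but differed in the same direction within each. Its log2 fold change was 0.68 ± 0.08 (SE) and did not pass over all genes (edgeR adjusted p = 0.174), although limma-voom, DESeq2 and the set without cells above 40000 UMIs called it (adjusted p = 0.0431, 4.1e-07 and 0.0258). Over all the alternatives its adjusted p ran up to 0.99998, the value without the replicate block.

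Of the 7 inhibitors, 6 were higher in all 4 pairs (9.86% over all genes), by unequal amounts. Cdkn2c held 35.8, 26.0, 122 and 35.3 CPM in Cdkn2a-high cells and 33.1, 22.0, 118 and 27.4 CPM in Cdkn2a-negative cells. Cdkn1b, which encodes p27, held 69.9, 81.5, 109 and 102 CPM in Cdkn2a-high cells, against 69.9, 83.7, 111 and 97.6 CPM in Cdkn2a-negative cells, a log2 fold change of −0.0030 ± 0.04 (SE). Cdkn1c was low outside sarcoma 1, with a log2 fold change of 0.75 ± 0.23 (SE; edgeR adjusted p = 0.426), at 17.1, 0.671, 1.99 and 1.23 CPM in Cdkn2a-high and 10.8, 0.402, 1.41 and 0.268 CPM in Cdkn2a-negative cells. Cdkn3, a phosphatase gene of the cell cycle, held 10.8, 12.6, 3.72 and 6.51 CPM in Cdkn2a-high cells and 10.4, 10.1, 3.17 and 0.134 CPM in Cdkn2a-negative cells. Its gap in sarcoma 4 rests on 53 UMIs in Cdkn2a-high and 1 UMI in Cdkn2a-negative cells.

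Most genes of the p53 target list lay higher in Cdkn2a-high cells without any of them passing the test over all genes. Of 24 tested, 16 had an unadjusted p below 0.05 on the higher side and 0 on the lower (4.94% and 5.03% over all genes). In all 4 pairs 15 were higher (9.86% over all genes). The list's median log2 fold change was 0.46, beside −0.0015 over all genes, and its median within each sarcoma was 0.40, 0.41, 0.52 and 0.31. Its members ranged from −0.40 to 1.40. The G2/M list described below had the same highest value (1.40121 in both), so the lists were not separate. Btg2 was lower in 3 of 4 sarcomas, at 836, 574, 266 and 1144 CPM in Cdkn2a-high and 883, 649, 226 and 1175 CPM in Cdkn2a-negative cells. Gdf15 turned between sarcomas, with log2 ratios of −1.43, −0.47, 0.94 and 2.20. Without sarcomas 1, 2, 3 and 4 in turn 13, 13, 12 and 16 members had an unadjusted p below 0.05 on the higher side, of 24, 24, 24 and 25 tested. The members were named in earlier work on these data, so the count is a description.

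Among them Ccng1, which encodes cyclin G1, held 92.5, 67.8, 135 and 34.4 CPM in Cdkn2a-high cells and 56.4, 40.8, 92.9 and 28.4 CPM in Cdkn2a-negative cells (log2 fold change 0.58 ± 0.08, SE; edgeR adjusted p = 0.201). Rps27l, a ribosomal protein paralogue induced by p53, held 849, 829, 707 and 575 CPM in Cdkn2a-high cells and 641, 682, 547 and 461 CPM in Cdkn2a-negative cells. Each sarcoma was higher in its Cdkn2a-high cells for both genes, and the classes overlapped. Zmat3, an RNA-binding protein gene, held 27.0, 22.95, 51.3 and 25.2 CPM in Cdkn2a-high and 16.9, 17.9, 34.7 and 20.2 CPM in Cdkn2a-negative cells.

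Members that act in cell death differed by unequal amounts. Bax, which opens the mitochondrial outer membrane, held 444, 299, 308 and 187 CPM in Cdkn2a-high cells and 336, 218, 233 and 171 CPM in Cdkn2a-negative cells. Trp53inp1, whose protein promotes p53-dependent cell death, held 21.3, 20.9, 87.1 and 13.9 CPM in Cdkn2a-high and 5.35, 7.03, 53.1 and 8.43 CPM in Cdkn2a-negative cells. Phlda3, a repressor of AKT, went the other way in sarcoma 4, with 76.5, 51.0, 133 and 274 CPM in Cdkn2a-high and 32.8, 24.9, 67.7 and 364 CPM in Cdkn2a-negative cells. Among further members with such a role, Bbc3, Ei24, Fas and Tnfrsf10b had log2 fold changes of 0.23 ± 0.09, 0.24 ± 0.08, 0.32 ± 0.20 and 0.31 ± 0.20 (SE; edgeR adjusted p from 0.438 to 0.628).

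The p53 gene and its main antagonist did not show a gap of that size. Trp53 held 186, 181, 155 and 141 CPM in Cdkn2a-high cells and 186, 168, 149 and 124 CPM in Cdkn2a-negative cells (log2 fold change 0.09 ± 0.05, SE). Mdm2, a p53 target and the partner of Arf, held 245, 163, 68.6 and 80.0 CPM in Cdkn2a-high cells and 215, 159, 62.9 and 89.2 CPM in Cdkn2a-negative cells (0.05 ± 0.07, SE; edgeR adjusted p = 0.831). Of 9 p53 and ARF partners tested, 0 had an unadjusted p below 0.05 (9.97% over all genes). Among the 21 p53 targets with a promoter window, Cdkn1a alone held the full p53 site.

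**Figure D3:**
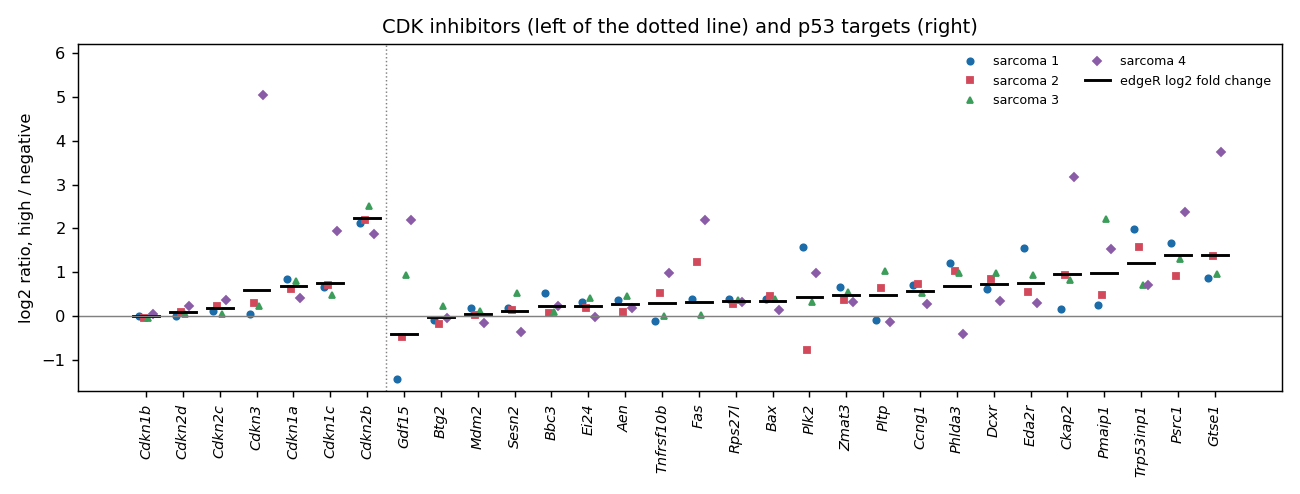
Log2 ratio of Cdkn2a-high over Cdkn2a-negative cells (0.5 UMI added to each sum) for the CDK inhibitors and the p53 targets tested; symbols are the 4 sarcomas and black bars the edgeR log2 fold change. Cdkn2b lies near 2 in all 4 sarcomas, most p53 targets lie above 0, and Cdkn3, Gtse1 and Ckap2 stand out in sarcoma 4.

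The levels of Cdkn2b and Cdkn1a were also read by step of Cdkn2a, in cells thinned to 10000 UMIs. With 0, 1, 2, 3 and 4 or more Cdkn2a UMIs, Cdkn2b averaged 8.93, 10.7, 15.5, 22.7 and 54.2 CPM over the 4 sarcomas. Cdkn1a averaged 342, 372, 417, 463 and 689 CPM at the same steps. Cdkn2b was higher at each step than at the one before in each of the 4 sarcomas. Cdkn1a was not, as sarcoma 4 held 342 CPM at 0 and 316 CPM at 1 UMI, and sarcoma 2 held 431 CPM at 2 and 425 CPM at 3 UMIs. The cells of these steps had been deposited with 26742, 28439, 29888, 30562 and 28888 UMIs (means of 4 medians), so the steps were not matched for depth.

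**Figure D4:**
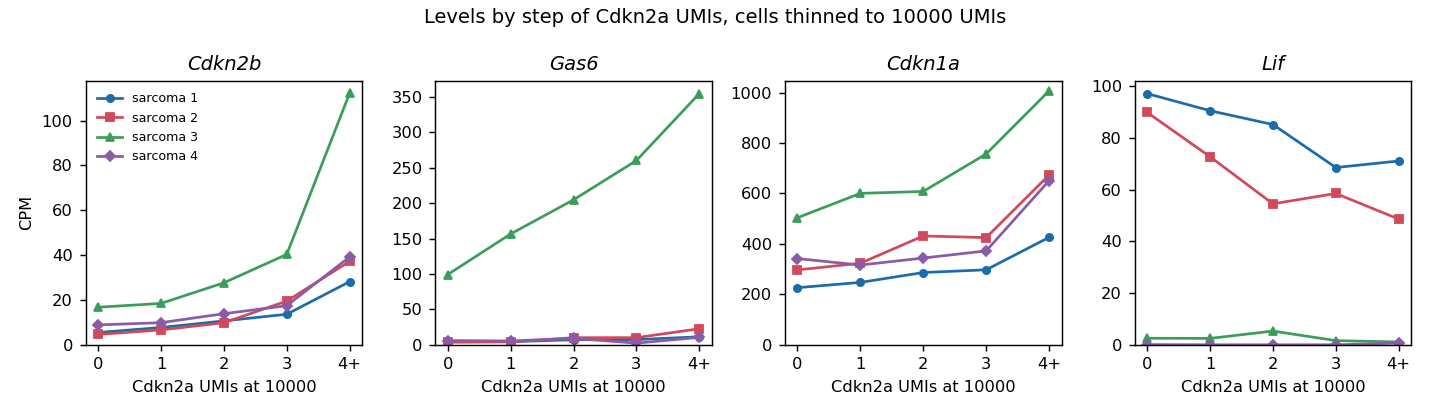
Mean level (CPM, linear axes from 0) of Cdkn2b, Gas6, Cdkn1a and Lif in cells with 0, 1, 2, 3 and 4 or more Cdkn2a UMIs after thinning to 10000 UMIs; lines are the 4 sarcomas. Cdkn2b climbs at each step in all 4 sarcomas, and its 4-sarcoma mean at 4 or more UMIs is 54.2 CPM against 8.93 at 0.

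Apart from Cdkn2b, the genes of smallest p on the higher side are given as values only. Gas6, a ligand of the AXL and MERTK receptors, held 12.5, 12.1, 274 and 7.50 CPM in Cdkn2a-high cells and 4.01, 3.58, 67.7 and 4.95 CPM in Cdkn2a-negative cells. Its log2 fold change was 1.70 ± 0.19 (SE; edgeR adjusted p = 0.160), and 1 cell gave 22.95% of the Cdkn2a-high sum of sarcoma 4. Clu, the extracellular chaperone clusterin, was abundant in 2 sarcomas only. It held 42.2, 0.479, 0.346 and 61.8 CPM in Cdkn2a-high and 4.32, 0.201, 0 and 13.4 CPM in Cdkn2a-negative cells. For this gene 1 cell gave 31% of the Cdkn2a-negative sum of sarcoma 4.

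The gelatinase gene Mmp9 held 31.0, 39.4, 73.3 and 0.738 CPM in Cdkn2a-high cells and 17.3, 13.03, 33.3 and 0.268 CPM in Cdkn2a-negative cells, and 1 cell gave 44.4% of the Cdkn2a-negative sum of sarcoma 3. Efemp1, a fibulin gene, rested on few cells as well, since 1 cell gave 76.8% of the Cdkn2a-high sum of sarcoma 2. The remaining genes named by p on this side were Ppp1r14a, Exoc4, Hey1 and Hmgn5, with log2 fold changes of 0.83, 0.48, 0.68 and 0.40. Ppp1r14a and Hey1, a Notch target, were most abundant in sarcoma 4, where they held 188 and 178 CPM in Cdkn2a-high and 115 and 106 CPM in Cdkn2a-negative cells.

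On the lower side no gene passed the edgeR test, and 602 had an unadjusted p below 0.05. Lif, a cytokine of the interleukin-6 family, held 66.7, 56.1, 1.13 and 0 CPM in Cdkn2a-high cells and 116, 123, 2.46 and 0.134 CPM in Cdkn2a-negative cells. Only sarcomas 1 and 2 expressed it at more than 3 CPM. Its log2 fold change was −0.98 ± 0.11 (SE; edgeR adjusted p = 0.160), and it was −0.32 without depth matching. The chemokine gene Cxcl2 held 83.7, 14.3, 0.520 and 0.123 CPM in Cdkn2a-high cells and 186, 39.9, 1.06 and 1.74 CPM in Cdkn2a-negative cells. Its log2 fold change of −1.35 ± 0.15 (SE; edgeR adjusted p = 0.160) turned to 0.27 without depth matching and to 0.10 in all cells thinned to 10000 UMIs.

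Secreted factors of senescent cells, which often accompany Cdkn2a, did not lie higher. Of 26 tested, 1 had an unadjusted p below 0.05 on the higher side (Mmp9) and 8 on the lower (4.94% and 5.03% over all genes). The median log2 fold change was −0.30 (−0.16 without sarcoma 1). Within sarcomas 1 to 4 the median was −0.36, −0.37, −0.08 and −0.02, so sarcomas 3 and 4 lay near 0. Besides Lif and Cxcl2, the monocyte chemokine gene Ccl2 held 1198, 431, 31.7 and 92.6 CPM in Cdkn2a-high cells and 1913, 622, 81.7 and 251 CPM in Cdkn2a-negative cells (edgeR adjusted p = 0.278). Plaur, the urokinase receptor gene, held 448, 336, 37.1 and 88.6 CPM in Cdkn2a-high and 669, 444, 76.5 and 159 CPM in Cdkn2a-negative cells (edgeR adjusted p = 0.201).

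Areg, an EGF receptor ligand gene, held 82.1, 56.4, 0.260 and 0 CPM in Cdkn2a-high cells and 154, 160, 0.704 and 0 CPM in Cdkn2a-negative cells. Timp1, a metalloproteinase inhibitor, held 1525, 3528, 938 and 61.5 CPM in Cdkn2a-high and 1801, 5131, 1627 and 153 CPM in Cdkn2a-negative cells. Both were lower in every sarcoma where they were counted. Without depth matching the median of the list was 0.00, and 3 of 29 members had an unadjusted p below 0.05 on each side.

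Other genes named by p on the lower side were Ptpre, Itgb3, Klf4, Ctla2a, Sdc4, Glul, Camk2n2, Nav1 and Tmbim1. Their log2 fold changes lay between −1.26 (Ctla2a) and −0.28 (Nav1), with edgeR adjusted p from 0.201 to 0.246. Ctla2a held 1075, 1.57, 231 and 0.246 CPM in Cdkn2a-high cells and 2391, 2.08, 697 and 1.74 CPM in Cdkn2a-negative cells. It was thus rare in sarcomas 2 and 4, and 1 cell gave 53.2% of the Cdkn2a-negative sum of sarcoma 2. Klf4, a reprogramming and growth-arrest transcription factor gene, held 808, 424, 413 and 454 CPM in Cdkn2a-high cells and 1016, 511, 570 and 565 CPM in Cdkn2a-negative cells. The integrin gene Itgb3 held 98.4, 197, 54.4 and 0.123 CPM in Cdkn2a-high and 122, 250, 74.5 and 0.134 CPM in Cdkn2a-negative cells.

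Immediate-early and heat-shock genes leaned the same way. Of 19 tested, 0 had an unadjusted p below 0.05 on the higher side and 6 on the lower (4.94% and 5.03% over all genes). The median log2 fold change was −0.13. Nr4a1 held 66.8, 90.2, 75.5 and 224 CPM in Cdkn2a-high cells and 82.4, 134, 83.8 and 304 CPM in Cdkn2a-negative cells. The chaperone genes Hsph1 and Dnajb1 averaged 100 ± 49.3 and 26.5 ± 5.59 CPM in Cdkn2a-high cells and 126 ± 63.1 and 32.7 ± 6.21 CPM in Cdkn2a-negative cells (SD, n = 4), each lower in 4 of 4 sarcomas.

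MYC and ribosome assembly genes gave a small gap whose direction rested on the matching. Of 27 tested, 8 had an unadjusted p below 0.05 on the lower side and 0 on the higher (5.03% and 4.94% over all genes). The median was −0.11. Without depth matching the median was 0.14 and 12 members lay on the higher side at that p, 0 on the lower. The count on the lower side was 4, 2, 5 and 13 without sarcomas 1 to 4. Myc held 154, 65.4, 24.9 and 0.369 CPM in Cdkn2a-high cells and 247, 78.4, 35.5 and 1.87 CPM in Cdkn2a-negative cells, and Nolc1, a nucleolar protein gene, averaged 43.5 ± 11.8 CPM in Cdkn2a-high and 50.9 ± 14.7 CPM in Cdkn2a-negative cells (SD, n = 4). In the hypoxia and glycolysis list 5 of 24 members had an unadjusted p below 0.05, all on the lower side (5.03% over all genes). Among them were the hexokinase gene Hk2 and the glucose transporter gene Slc2a1. Without depth matching 2 members lay on each side at that p.

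The cell cycle was read because Ink4a and Cdkn1a block it. Summed over the G2/M list, Cdkn2a-high cells held 21.7, 23.9, 13.1 and 22.1 UMIs per 10000, against 23.6, 18.3, 12.7 and 12.98 in Cdkn2a-negative cells. The difference was 3.32 ± 5.00 (SD, n = 4; higher in 3 of 4 sarcomas; two-sided exact permutation p = 0.375, where 0.13 is the smallest that 4 pairs allow). For S-phase genes the sums averaged 8.83 ± 1.39 in Cdkn2a-high and 7.78 ± 1.04 UMIs per 10000 in Cdkn2a-negative cells (SD, n = 4; two-sided exact permutation p = 0.375). Neither sum could pass a threshold of 0.05 in this design.

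By gene, 7 of 54 G2/M genes and 7 of 45 S-phase genes had an unadjusted p below 0.05 on the higher side. On the lower side 0 did, and over all genes 4.94% and 5.03% did. The medians of the G2/M and S-phase lists were 0.50 and 0.15. The G2/M median within sarcomas was −0.16, 0.48, 0.04 and 1.81, so sarcoma 4 was far from the rest, and without it the median was 0.18. The G2/M count was 16 without sarcoma 1 and 3 without sarcoma 2, and the S-phase count was 2 without sarcoma 2 and 15 without sarcoma 3. The S-phase median was 0.12, 0.24, −0.19 and 0.36 within sarcomas 1 to 4, and it was 0.080 without sarcoma 2 and 0.24 without sarcoma 3. Mki67, the proliferation antigen gene, held 32.6, 53.8, 6.76 and 22.1 CPM in Cdkn2a-high cells and 31.2, 32.4, 7.39 and 0.402 CPM in Cdkn2a-negative cells. In sarcoma 4 these were 180 UMIs in Cdkn2a-high against 3 UMIs in Cdkn2a-negative cells (55.1-fold, 95% exact interval 18.6 to 270 for counting error only).

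The G2/M result differed between the matched cells and all cells. Whether depth and the cycle are linked was not tested. Among all cells of both classes without matching, 48 of the 54 G2/M genes had an unadjusted p below 0.05 on the higher side, and in all cells thinned to 10000 UMIs 47 did. Over all genes tested 14.8% without matching and 12.9% thinned had such a p on either side. After matching for G2/M and S-phase UMIs as well as depth the G2/M median was 0.04, and 15 of 24 members of the p53 list had an unadjusted p below 0.05 on the higher side, with a median of 0.48. Cdkn2b was 2.33 on the log2 scale in that set (edgeR adjusted p = 0.00168).

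Of 17 cyclin, CDK4/6 and RB family genes tested, 1 had an unadjusted p below 0.05 on the higher side and 0 on the lower. Over all genes 4.94% and 5.03% did, and the median log2 fold change of the list was 0.13. Cdk4 held 206, 128, 164 and 230 CPM in Cdkn2a-high cells and 170, 118, 150 and 178 CPM in Cdkn2a-negative cells, higher in 4 of 4 sarcomas by 0.22 ± 0.06 (SE; edgeR adjusted p = 0.361). Cdk6 and Rb1 had log2 fold changes of 0.00 ± 0.09 and −0.19 ± 0.14 (SE). Ccnd1 held 1034, 873, 303 and 28.1 CPM in Cdkn2a-high and 922, 840, 385 and 9.10 CPM in Cdkn2a-negative cells, and the cell-cycle transcription factor gene E2f1 differed by 0.03 ± 0.09 (SE). Ccnd2 held 125, 79.5, 218 and 897 CPM in Cdkn2a-high cells and 25.2, 38.9, 208 and 826 CPM in Cdkn2a-negative cells, a ratio of 4.96 in sarcoma 1, 2.04 in sarcoma 2, 1.05 in sarcoma 3 and 1.09 in sarcoma 4 (log2 fold change 0.80 ± 0.36, SE; edgeR adjusted p = 0.514).

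Genes that control the Ink4a/Arf locus were also counted. Of 29 tested, 1 had an unadjusted p below 0.05 on the higher side and 3 on the lower (4.94% and 5.03% over all genes). The Polycomb genes Bmi1 and Ezh2, known repressors of the locus, differed by 0.04 ± 0.07 and 0.03 ± 0.08 on the log2 scale (SE), and across 26 Polycomb genes the median was 0.02. The SWI/SNF ATPase gene Smarca2 held 23.8, 28.2, 73.1 and 4.30 CPM in Cdkn2a-high and 20.9, 20.9, 66.0 and 2.28 CPM in Cdkn2a-negative cells. Runx1 held 91.3, 33.5, 37.5 and 52.4 CPM in Cdkn2a-high cells and 134, 47.9, 42.7 and 114 CPM in Cdkn2a-negative cells (edgeR adjusted p = 0.361).

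**Figure D5:**
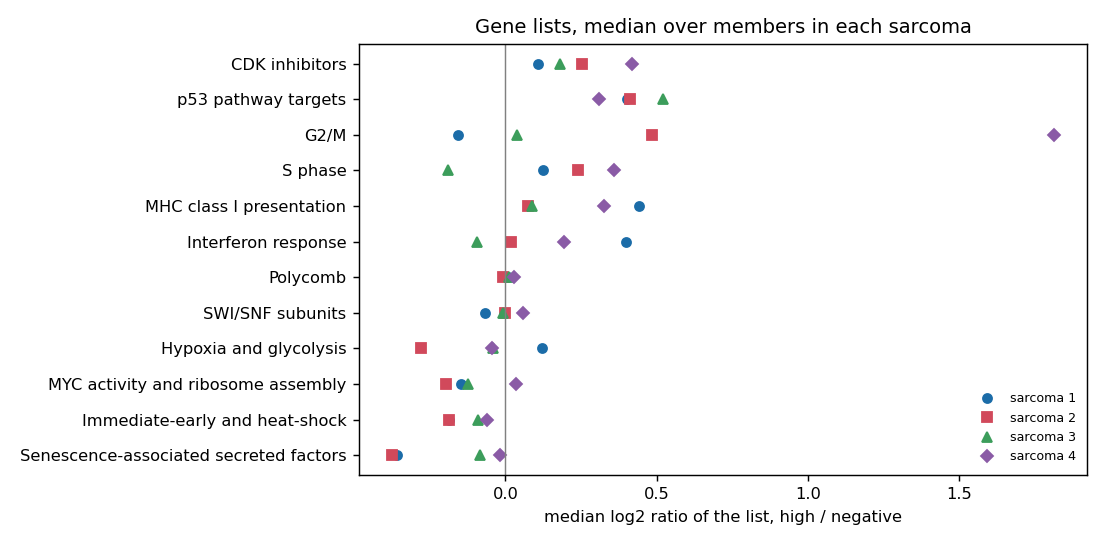
Median log2 ratio of Cdkn2a-high over Cdkn2a-negative cells across the tested members of 12 gene lists, with 1 symbol per sarcoma. The p53 list lies between 0.31 and 0.52 in the 4 sarcomas, the Polycomb and SWI/SNF lists lie near 0, and the G2/M list reaches 1.81 in sarcoma 4.

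Genes that define the sarcoma cells or vary among them were set beside this. The reporter tdTomato held 752, 357, 1052 and 284 CPM in Cdkn2a-high cells and 884, 349, 1233 and 297 CPM in Cdkn2a-negative cells, and the driver gene Hic1 held 32.1, 29.9, 23.3 and 0.369 CPM in Cdkn2a-high and 29.5, 27.2, 20.2 and 0.937 CPM in Cdkn2a-negative cells. The neurofilament gene Nefl held 1250, 214, 252 and 169 CPM in Cdkn2a-high and 676, 194, 284 and 69.3 CPM in Cdkn2a-negative cells. Spp1 and Pcsk1 had log2 fold changes of 0.02 ± 0.34 and −0.25 ± 0.11 (SE). Only 5 of 17 epithelial keratin and junction genes passed the filter on low counts. Krt18 was at 0 in both classes of sarcoma 2, and 1 cell gave 94.1% of the Cdkn2a-high sum of sarcoma 3.

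Marker RNA of other cell types was summed in the same cells. The summed markers of haematopoietic cells (14 genes) ranged from 12.6 to 25.1 CPM in Cdkn2a-high cells and from 14.9 to 26.0 CPM in Cdkn2a-negative cells. Endothelial markers (10 genes) ranged from 7.91 to 326 CPM in Cdkn2a-high and from 6.76 to 299 CPM in Cdkn2a-negative cells, and mural markers (10 genes) from 12.5 to 485 CPM in Cdkn2a-high and from 17.7 to 606 CPM in Cdkn2a-negative cells. Ptprc, the leukocyte antigen CD45, was at 0 in both classes of sarcomas 1, 2 and 4, and Myf5, Pax7 and Myog were at 0 in all 8 sums. Within pairs there were gaps. Keratinocyte markers (8 genes) held 132 CPM in Cdkn2a-high and 75.5 CPM in Cdkn2a-negative cells of sarcoma 4, and myogenic markers (8 genes) 8.98 CPM in Cdkn2a-high and 1.32 CPM in Cdkn2a-negative cells of sarcoma 3. Tenocyte markers (7 genes) held 1434, 198, 469 and 409 CPM in Cdkn2a-high cells and 1435, 313, 275 and 293 CPM in Cdkn2a-negative cells. Mesenchymal progenitor markers (15 genes) held 4120, 7015, 12336 and 7924 CPM in Cdkn2a-high cells and 3328, 7098, 10177 and 10830 CPM in Cdkn2a-negative cells. Erythroid markers (6 genes) stayed below 2 CPM and glial markers (8 genes) ranged from 1.77 to 81.4 CPM in Cdkn2a-high and from 1.78 to 74.3 CPM in Cdkn2a-negative cells. Cdkn2a-high cells had 4799 ± 380 detected genes and Cdkn2a-negative cells 4700 ± 317 (SD of library medians, n = 4; two-sided exact permutation p = 0.13), with 2.99% ± 0.449 mitochondrial UMIs in Cdkn2a-high and 2.86% ± 0.447 in Cdkn2a-negative cells. The part of these differences in the results was not tested.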

How the data were processed

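Single cells of 4 sarcomas and 1 muscle sample were profiled with 10x 3′ chemistry. The deposited matrices hold raw UMI counts per gene and barcode. Per the file headers, Cell Ranger 6.0.1 made them, on mm10 per the submitters' processing notes. The members and gene lists were chosen with earlier results of these data known. From the counts, cells were selected and depth-matched per sarcoma with a fixed seed, their counts were summed per sarcoma and class, and the 8 sums were tested with edgeR 4.0.16 in R 4.3.3 (TMM, filterByExpr, quasi-likelihood, sarcoma as block, Benjamini-Hochberg threshold 0.05). The 21 features used by the rule were left out of the fit. CPM of the 8 sums by gene are TMM-scaled per 1000000 UMIs of genes tested. The other CPM are per 1000000 total UMIs without TMM. They cover Cdkn2a over all sarcoma cells, by count and in part B, the muscle level, the thinned steps and the marker sums. The classes of a sarcoma come from the same library, and deviations from the class means correlated at 0.935 to 0.953 within sarcomas. Libraries held 151903246 to 213271163 UMIs, and 64061069 in muscle. Named genes were the 12 on each side with 20 CPM or more and 1 direction in all 4 sarcomas, largest fold change first among called genes and then by p, up to 4 members of each list by size or level, and a fixed set of cell-cycle, p53 and lineage genes. Text also names further members of the lists. Alternatives were DESeq2 1.42.0, limma-voom 3.58.1, other scaling, filters, class limits, depth handling and left-out sarcomas. The fits were tested on simulated data.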

Additional observations from a re-analysis of the deposited data

Results flagged for a closer look

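Of 100 groups of 4 values examined, 7 had 1 sarcoma far from the other 3 by Dixon's criterion for 4 samples, which chance gives in about 1 of 20 groups. The values are log2 ratios of Cdkn2a-high over Cdkn2a-negative cells with 0.5 UMI added to each sum. Sarcoma 4 was the highest for Cdkn1c (1.95, others 0.49 to 0.72), for Cdkn3 (5.03, others 0.06 to 0.31) and for Mki67 (5.57, others −0.13 to 0.73). These 3 rest on 2, 1 and 3 UMIs in Cdkn2a-negative cells of sarcoma 4. Sarcoma 4 was the lowest for Bax (0.14, others 0.40 to 0.45), for Phlda3 (−0.41, others 0.98 to 1.22) and for Hic1 (−1.22, others 0.12 to 0.20). Hic1 was rare in both classes of sarcoma 4, at 0.369 CPM in Cdkn2a-high and 0.937 CPM in Cdkn2a-negative cells, and its smallest sum held 3 UMIs. E2f1 was highest in sarcoma 2 (0.30, others −0.09 to −0.08).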

How the results depend on the processing

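Genes called higher and lower numbered 29 and 28 with DESeq2, 11 and 5 with limma-voom, 40 and 3 in all cells thinned to 10000 UMIs, 7 and 4 without cells above 40000 UMIs, 4 and 0 without depth matching, 5 and 0 at 6 or more Cdkn2a UMIs, 2 and 0 with classes from part of the Cdkn2a UMIs, 2 and 0 in a second draw of cells, and 0 and 0 without the replicate block. Leaving out 1 sarcoma gave 0 to 3 higher. Cdkn2b kept its direction in all alternatives (log2 1.78 to 2.59).

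The CDK inhibitor median was 0.44 at 6 or more UMIs, 0.22 with classes from part of the UMIs, 0.37 with limma-voom, 0.14 with the cycle matched, and 0.21 to 0.69 without 1 sarcoma. The p53 median was 0.62 at 6 or more UMIs and 0.36 without the replicate block. Without depth matching and thinned, in that order, medians were 0.0032 and −0.086 for secreted factors, −0.32 and −0.35 for immediate-early genes (−0.062 with the cycle matched), 0.14 and 0.12 for MYC genes, and 0.74 and 0.62 for S phase. At 5000 UMIs the mean Fano factor was 1.70 and 60.4% of cells had no Cdkn2a UMI.

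Directions turned mostly for genes near 0. Without depth matching and thinned, log2 fold changes were −0.025 and −0.032 for Cdkn2c, −0.13 and −0.15 for Bmi1, 0.27 and 0.10 for Cxcl2, 0.073 and 0.032 for Nolc1, and 1.27 and 1.31 for Krt18, and Hsph1 was 5.4e-05 thinned. Without cells above 40000 UMIs they were 0.028 for Cdkn1b, −0.019 for Cdkn2d, −0.024 for Cdk6 and −0.056 for Ezh2. Cdkn1b was 0.052 with library-size scaling, Cdkn2d −0.010 with the cycle matched, Ezh2 −0.017 at 6 or more UMIs, Fas −0.011 at 2 or more UMIs, and E2f1 −0.0049 without the replicate block. Cdk6 was −0.0093 with DESeq2, −0.016 with classes from part of the UMIs and −0.0051 with no filter. Spp1 was −0.025, −0.016, −0.077, −0.048 and −0.43 with DESeq2, classes from part of the UMIs, the cycle matched, no replicate block and the second draw. Krt18 was 0.51, 0.0014, 0.87, 0.86 and 0.43 at 2 or more UMIs and with DESeq2, classes from part of the UMIs, the cycle matched and the second draw. Leaving out 1 sarcoma gave −0.023 to 0.0083 for Cdkn1b, −0.038 to 0.43 for Ccnd1, −0.11 to 0.070 for Cdk6, −0.084 to 0.064 for E2f1, −0.0067 to 0.10 for Bmi1, −0.029 to 0.079 for Ezh2, −0.43 to 0.28 for Spp1 and −1.81 to 1.49 for Krt18. The cause was not tested.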

Other observations

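Among all selected cells, without matching, Gm12606 held 155, 57, 17 and 1 UMIs in Cdkn2a-high cells of sarcomas 1 to 4, against 0, 2, 0 and 1 UMIs in Cdkn2a-negative cells. The sums were 230 UMIs in Cdkn2a-high and 3 UMIs in Cdkn2a-negative cells, which were fewer and shallower.

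Of 12 MHC class I presentation genes tested, 3 had an unadjusted p below 0.05 on the higher side and 0 on the lower, with a median log2 fold change of 0.21. Of 12 oncofetal and imprinted genes, 4 did so on the higher side and 0 on the lower, with a median of 0.28. Over all genes 4.94% and 5.03% had such a p on the higher and the lower side. No member of either list passed the edgeR test over all genes.

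An AP-1 motif stood in the promoter window of 8 of 24 secreted-factor genes with one, and in 7.82% of all 27025 genes of the table. The 24 were drawn from all 32 members of the list, whether tested between the classes or not. The 8 were Il1a, Il6, Lif, Mmp10, Mmp12, Mmp13, Mmp3 and Plaur, of which only Lif and Plaur are described as lower above. Cxcl2, Ccl2, Areg and Timp1, also described as lower above, were not among them, and members without a window could not be. A link between the motif and the levels was not tested. The motif stood in 0 of 15 immediate-early and heat-shock genes.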
